A study of Mus musculus with 45 samples.

Results

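Exon deletions of Pdgfra, the receptor for platelet-derived growth factor, were compared in mouse brain tumours of a glioblastoma model. The groups were 3 arrays of genotype Pdgfra E7 del and 5 arrays of genotype Pdgfra E10 del.v2, 8 of the 45 arrays of the series. They were chosen by genotype and by the number in the sample title, which is used here to name an array: 53, 54 and 55 for E7 del, and 56, 58, 59, 63 and 64 for E10 del.v2. All of them lie in the title range 41 to 64. Array 57, also E10 del.v2, was left out of the comparison because its transcripts read mostly as brain. For some genes and lists its values are given beside the others. Every tumour of both groups carried a p53 null background and was labelled with the strain CD-1 nude, an immunodeficient mouse. Per the series description, mutant receptors were delivered by retrovirus to cultured mouse astrocytes of that background. The labels give no age, sex or time, and they do not say whether the arrays of a group came from separate cultures or animals. P-values and standard errors rest on the spread within groups over all 45 arrays, not over the 8 alone. Most of those arrays belong to other groups than the ones compared. Because separate cultures or animals are not stated, the spread may be technical. The source is labelled mouse brain, so each sample holds tumour and host cells together, and fewer cells of a type and less RNA per cell cannot be told apart. Total RNA was read on Affymetrix arrays, and the values are log2 signals whose precision is limited by how few arrays there are.

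PDGFRA is a receptor tyrosine kinase that marks oligodendrocyte progenitors, and its activation drives their division and a class of glioma. Foxf1 encodes a forkhead transcription factor of lateral plate mesoderm and its derivatives, where it acts downstream of hedgehog signals, and Fendrr is a long noncoding RNA transcribed from the opposite strand beside it. In the RefSeq gene table the pair are next to each other.

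Foxf1 and Fendrr were the reason this pair of genotypes was singled out: earlier results on the same arrays had placed both genes highest in E7 del, so their levels are a description, and no test of them supports anything here. The 250 bases before the RefSeq start of Fendrr (GRCm38.p6, chr8:121083111-121083360, minus strand) are shown because the window holds a forkhead motif, GTAAACA, in capitals, 129 to 123 bases before the start.

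Fendrr: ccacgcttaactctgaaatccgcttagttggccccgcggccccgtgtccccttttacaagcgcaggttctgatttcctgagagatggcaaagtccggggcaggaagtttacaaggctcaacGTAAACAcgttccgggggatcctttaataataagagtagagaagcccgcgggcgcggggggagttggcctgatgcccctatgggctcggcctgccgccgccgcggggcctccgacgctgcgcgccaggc

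Of 32851 RefSeq promoter windows of 300 bases (250 before and 50 after each start), 1199, or 3.65%, held GTAAACA on either strand. In a set of 61 genes named in the text, 47 had a window and 1 of these, that of Fendrr, held it. Foxf1 had no entry among the windows. The motif was 1 of 9 searched on both strands, and the windows printed were picked after the matches were seen.

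Foxf1 was 6.50, 7.45 and 6.37 in E7 del arrays 53, 54 and 55. It was 5.17, 4.64, 4.86, 3.78 and 4.50 in E10 del.v2 arrays 56, 58, 59, 63 and 64, and 4.49 in array 57. The lowest E7 del array lay above the highest E10 del.v2 array, and the means differed by 2.19 ± 0.39 (SE of the limma fit), or 4.56-fold. Fendrr was 5.18, 6.43 and 5.71 in E7 del. Its E10 del.v2 values were 3.78, 3.93, 3.90, 3.22 and 3.27, with 4.0 in array 57, a difference of 2.15 ± 0.32 or 4.44-fold. Array 54 was the highest for both genes. Foxf1 was above the table median of 4.79, the level used to filter genes, in 3 of 3 E7 del arrays, 2 of 5 E10 del.v2 arrays and 4 of the other 37, and Fendrr in 3, 0 and 2. Fendrr thus passed the filter, which asked for 3 arrays, only through the group where it was high, whereas Foxf1 passed it without E7 del as well.

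A second probe set of Foxf1 was nearly at background in most arrays. It read 3.96, 5.29 and 3.72 in E7 del against 3.57 to 3.98 in E10 del.v2, so it stood apart in array 54 only.

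The E7 del values of Foxf1 lay above all 42 other arrays of the series, of which the highest, 6.27, was a Pdgfra V544ins array of titles 41 to 64. That group, an insertion in the same receptor, spread widely for Foxf1 (lowest 3.30, median 4.78, highest 6.27, n = 6). It did so for Fendrr as well (3.17, 3.84 and 5.56), and 1 of its arrays was above the lowest E7 del value of Fendrr. Every other group of the series held Foxf1 at 4.89 or below, apart from 1 E10 del.v2 array at 5.17. The single array labelled Pdgfra WT read 4.73 for Foxf1 and 3.91 for Fendrr.

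**Figure D1:**
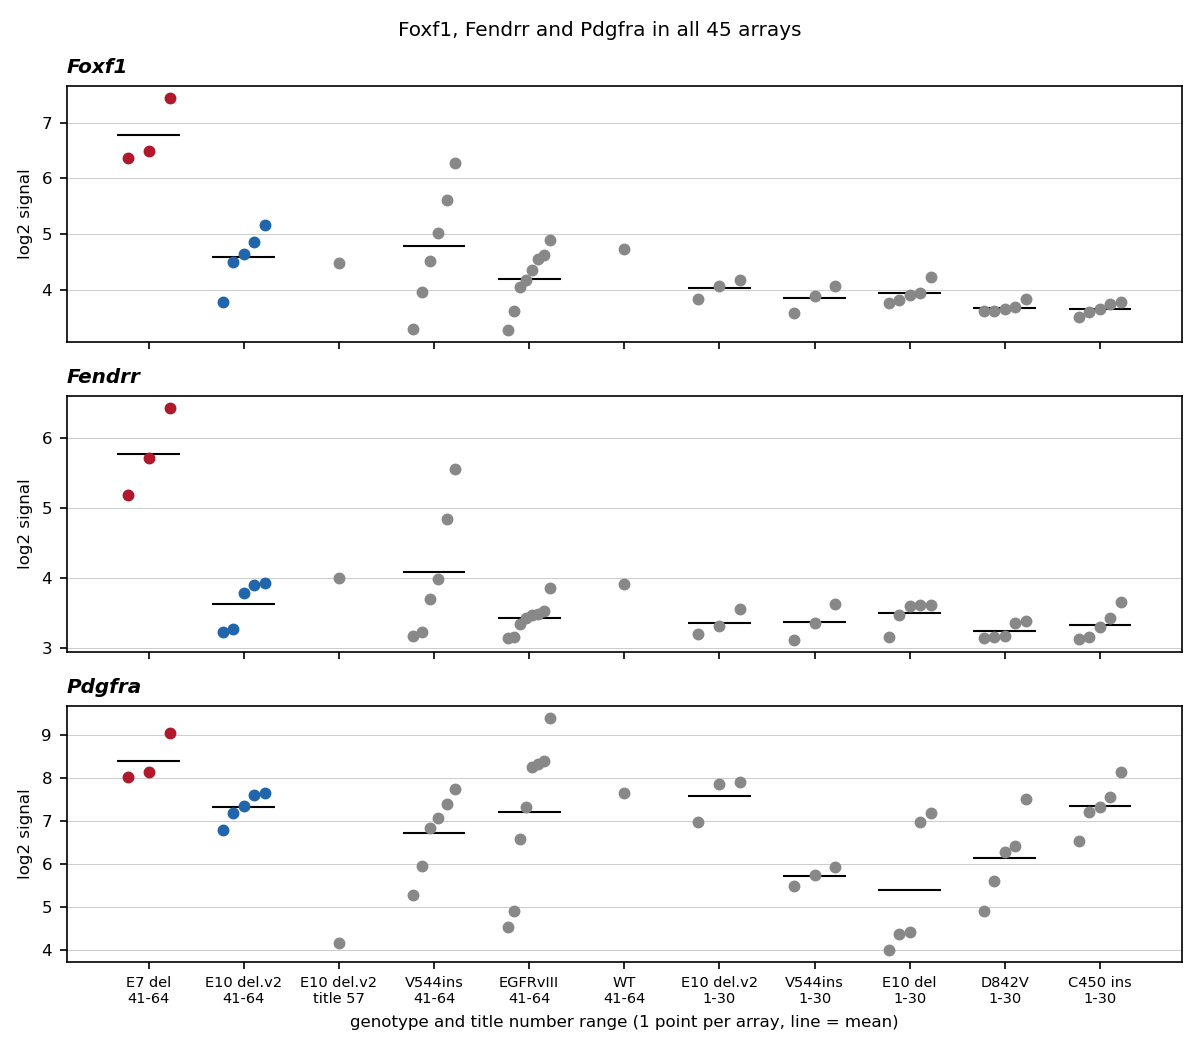
Log2 signals of Foxf1, Fendrr and Pdgfra in the 45 arrays, 1 point per array, grouped by genotype and title range, with a line at each group mean. The 3 E7 del arrays (red) lie between 6.37 and 7.45 for Foxf1, above the 5 E10 del.v2 arrays (blue) at 3.78 to 5.17, and the V544ins arrays of titles 41 to 64 span 3.30 to 6.27.

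A gene is termed called here at a limma adjusted p under 0.05 across all 11809 genes tested. The called genes were 2 (0.0169%), and they were Fendrr and Foxf1, for which the comparison had been chosen, so nothing is read from that count. None of the other genes was called, and their smallest adjusted p was 0.357. An unadjusted p under 0.05 was reached by 735 genes (6.22%), 376 higher in E7 del (3.18%) and 359 lower (3.04%). The 3 E7 del arrays lay above all 5 E10 del.v2 arrays for 394 genes (3.34%) and below them for 367 (3.11%). The median difference over all genes was 0.03, with 53.6% of the differences positive and 46.4% negative. The count moved with the arrays in the fit: no gene was called without array 54, with only the 8 arrays in the fit, or within titles 41 to 64. Without array 63 Fendrr alone was called. Without array 53 the count was 4, with Mbp and Tmem223 as the additions, both lower in E7 del.

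**Figure D2:**
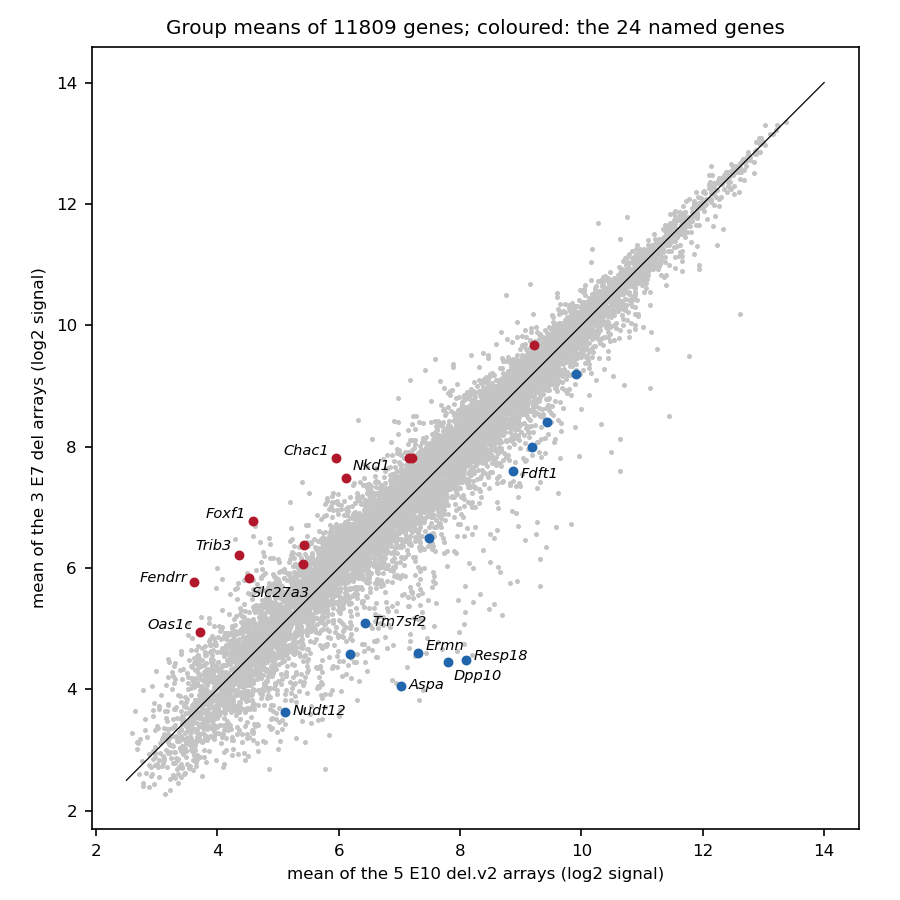
Mean log2 signal of the 3 E7 del arrays (vertical) against that of the 5 E10 del.v2 arrays (horizontal) for 11809 genes, 1 grey point per gene, with the line of equality. Coloured points are the 24 genes named by rule, 12 higher (red) and 12 lower (blue) in E7 del. Foxf1 and Fendrr, for which the comparison was chosen, are among the red points, and none of the other 22 was called.

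Over the 45 arrays the pattern most like that of Foxf1 was that of Fendrr, with a Pearson correlation of 0.92, and 0.81 over the 42 arrays without E7 del. The next were Gabrr2, a GABA receptor subunit gene (0.76, and 0.73 without E7 del), Oas1c of the oligoadenylate synthetase family (0.72 and 0.58), Tatdn2 (0.72 and 0.62) and Fbxo17 (0.70 and 0.51). These are descriptions over arrays that share genotypes and tissue content. Gabrr2 was 3.58, 4.97 and 5.13 in E7 del and 3.16 to 4.29 in E10 del.v2, so array 53 overlapped. Of 11 measured genes around the Foxf1 locus none was called. An unadjusted p under 0.05 on the higher side was reached by 1 of them, against 3.18% of all genes. It was Slc7a5, a subunit gene of the large neutral amino acid transporter, at 9.12, 10.30 and 9.91 against 8.35 to 9.51. The median difference of these neighbours was 0.21. No measured forkhead gene other than Foxf1 had an unadjusted p under 0.05 (15 genes, differences from -0.98 to 0.52). With 6.22% of all genes reaching it, so short a list could well hold none, and nothing is read from that. Among 9 measured mesenchymal transcription factor genes Twist1 was 6.13 in array 53, 3.0 and 2.59 in the other two E7 del arrays, and 2.74 to 3.24 in E10 del.v2.

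Hedgehog signalling was looked at because Foxf1 is a known hedgehog target in other tissues. Ptch1, the hedgehog receptor gene that the pathway itself induces, was 8.75, 8.56 and 8.69 in E7 del. It was 8.76, 9.26, 9.63, 9.65 and 8.92 in E10 del.v2, so the groups did not overlap, by 0.01 at the closest pair, and E7 del was the lower (difference -0.58 ± 0.27, limma adjusted p = 0.786). Of 8 measured hedgehog genes 3 had a positive and 5 a negative difference, against 53.6% and 46.4% of all genes, and the median was -0.04.

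Beyond Foxf1 and Fendrr, the 10 genes that led the ranking on the higher side are given as values, since none passed. They had to lie without overlap to be named, so their separation is not a finding. Chac1, which degrades glutathione and is a target of the stress factor ATF4, was 7.41, 8.16 and 7.87 against 5.72, 6.03, 6.83, 5.41 and 5.83. Its difference was 1.85 ± 0.45, or 3.60-fold (limma adjusted p = 0.418). Trib3, a pseudokinase gene that ATF4 and CHOP induce, was 6.61, 5.82 and 6.24 against 4.46, 4.37, 4.92, 3.87 and 4.2 (1.86 ± 0.49, 3.62-fold, limma adjusted p = 0.746). Other tumours of titles 41 to 64 reached past the E7 del values. Chac1 was 6.98 to 8.55 in V544ins (median 7.35, n = 6), 5.82 to 8.37 in EGFRvIII, the tumours driven by a truncated EGF receptor (median 6.65, n = 8), and 8.68 in the Pdgfra WT array. Trib3 was 5.17 to 7.34 (median 5.71), 4.14 to 7.83 (median 5.83) and 7.01 there. Of the 42 arrays outside E7 del, 3 lay above its highest value for Chac1 and 5 for Trib3.

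Nkd1, a feedback inhibitor of Wnt signalling that Wnt itself induces, was 7.27, 7.48 and 7.73 against 6.19, 6.05, 5.90, 6.55 and 5.90. Its difference was 1.38 ± 0.37, and the smaller differences of its other 3 probe sets, 0.65, 0.27 and 0.24, had the same sign. Slc27a3, of the fatty acid transport protein family, was 6.2, 5.82 and 5.49 against 3.89 to 4.88 (1.32 ± 0.31). Oas1c was 5.15, 4.59 and 5.08 against 3.26 to 4.31. Usp36, a nucleolar deubiquitinase gene, was 7.74, 7.80 and 7.90, above all 42 other arrays, of which the highest was 7.71, and its second probe set differed by 0.85. Fbxo17, an F-box gene, was likewise above all 42 others, at 6.30, 6.61 and 6.19 against a highest other value of 6.04. The rest were Mmachc, which handles vitamin B12 (0.61), the nucleoporin-like gene Nupl2 (0.66, and 0.15 in a second probe set) and the noncanonical poly(A) polymerase gene Tent4b (0.47). Tent4b depended on array 53, and its difference was 0.23 without it.

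On the lower side Tm7sf2, a sterol reductase gene of cholesterol synthesis, led. It was 4.94, 4.97 and 5.40 in E7 del and 6.32, 6.26, 6.09, 6.91 and 6.64 in E10 del.v2, a difference of -1.34 ± 0.30 (limma adjusted p = 0.357). The E7 del arrays lay below all 42 others, whose lowest, 5.61, was the Pdgfra WT array. In array 57 Tm7sf2 was 6.99, and it was called when all 9 E10 del.v2 arrays, array 57 among them, were used. Cdk2ap2, a gene of a CDK2-associated protein, also lay below all 42 others (6.64, 6.27 and 6.59, lowest other 6.77), whereas a second probe set near background differed by 0.01. Fzd3, a Wnt receptor gene of axon guidance, was 8.97, 8.39 and 7.87 against 8.99 to 9.82, and 10.40 in array 57. Of its other 5 probe sets all had negative differences, from -0.83 to -0.11. Fdft1 and Idi1 are enzymes of the sterol pathway and are described with it below. Fkbp2, an endoplasmic reticulum prolyl isomerase gene, differed by -0.71 ± 0.22 and was 10.25 in array 57.

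Aspa and Ermn are genes of mature oligodendrocytes. Dpp10 and Nudt12 were higher in array 57 than in any array compared, as were Tm7sf2, Fzd3 and Fkbp2. Aspa was 4.96, 3.07 and 4.12 against 6.28 to 7.94, below all 42 other arrays. Ermn was 6.25, 3.39 and 4.12 against 6.65 to 8.36. Dpp10, a subunit gene of neuronal potassium channels, was 5.20, 3.89 and 4.26 against 7.24 to 8.73, and 9.65 in array 57. Resp18, a neuroendocrine secretory gene, was 5.67, 4.23 and 3.58 against 7.25 to 10.34. Nudt12 (-1.50) and Dleu7 (-1.61) complete the list. For 5 of these 6 genes array 53 had the highest E7 del value, Dleu7 being the exception.

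**Figure D3:**
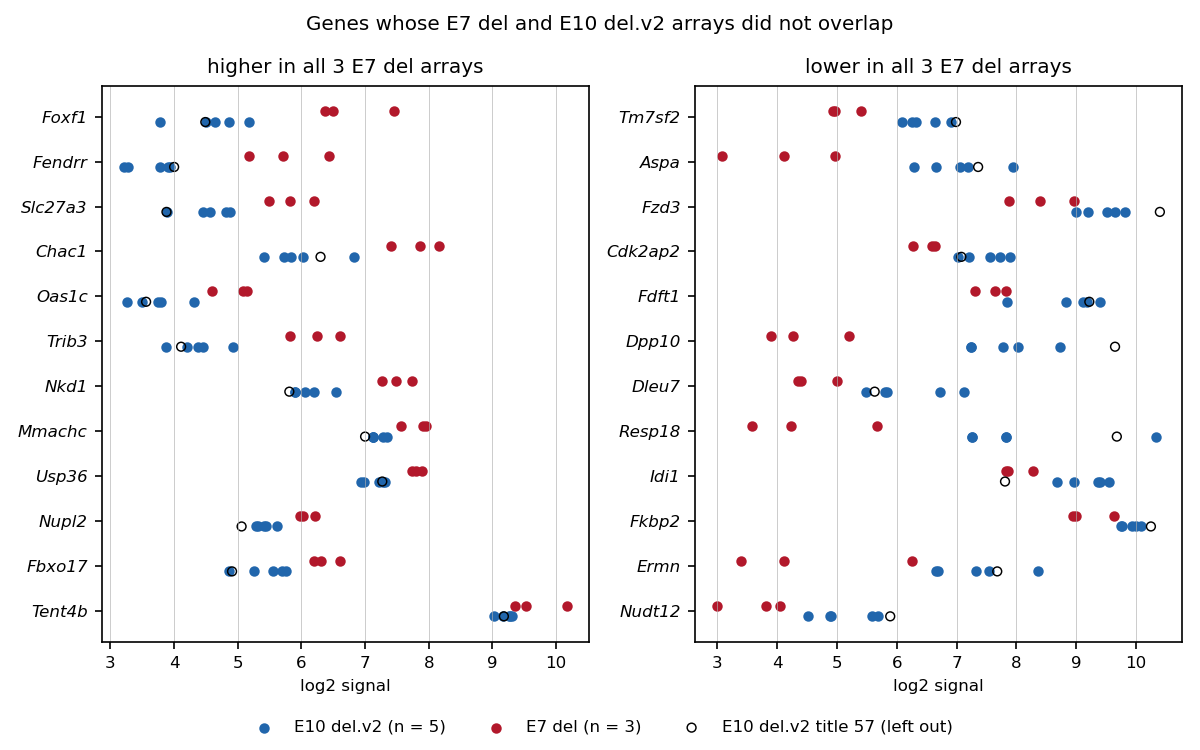
Log2 signal of the 24 named genes, 12 per side, with E7 del arrays in red (n = 3), E10 del.v2 arrays in blue (n = 5) and array 57 as an open circle. By the naming rule no red point overlaps the blue ones. The gap is widest for Dpp10, and the closest values are 8.97 and 8.99 for Fzd3 and 7.82 and 7.84 for Fdft1.

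The list of unfolded protein and ATF4 genes held 15 measured members, 8 with a positive and 7 with a negative difference, against 53.6% and 46.4% of all genes. None was called, 6 had an unadjusted p under 0.05 on the higher side and 1 on the lower, against 3.18% and 3.04%. The median was 0.16, and it was -0.30 without arrays 53 and 63, a setting added after the values were seen. The members are given by the sign of their difference, a division that no list had fixed. ATF4 induces amino acid response genes when protein synthesis is held back. The 6 on the higher side were Chac1, Trib3, Asns, Atf4, Sesn2 and Ddit3. Asns, asparagine synthetase, was 10.05, 10.98 and 10.55 against 9.27, 9.59, 10.10, 9.53 and 9.48 (0.93 ± 0.35), so array 53 overlapped array 59. Atf4 was 10.61, 10.77 and 10.43 against 9.79 to 10.45 (0.56 ± 0.22), and Sesn2 was 6.43, 7.29 and 6.93 against 5.22 to 6.76. Ddit3, which encodes the factor CHOP, was 9.77 in array 53 but 8.18 and 8.37 in the others, within the E10 del.v2 range of 7.48 to 8.47.

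The 7 genes with a negative difference were Xbp1 and 6 genes of endoplasmic reticulum proteins. Xbp1, a transcription factor of the unfolded protein response, was 10.59, 10.22 and 10.25 against 11.12, 10.88, 10.89, 10.72 and 10.50 (-0.47 ± 0.18). Creld2 was 8.63, 8.54 and 8.54 against 8.92 to 9.68, and was the gene of the list that lay wholly below. Hspa5, the chaperone BiP, was 11.75 in array 53 and 10.94 and 10.95 in the others, against 11.43 to 11.82. Hsp90b1, Pdia4, Sdf2l1 and Dnajb9 had differences of -0.28, -0.48, -0.55 and -0.25.

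The promoter windows of 3 genes are shown because they hold known response elements of stress genes: the C/EBP-ATF response element (TGATGNAA) for Chac1 and Asns, and the endoplasmic reticulum stress element (CCAAT and CCACG separated by any 9 bases) for Hspa5. Each is the 250 bases before the RefSeq start in GRCm38.p6, with the match in capitals. Chac1 is at chr2:119350992-119351241 (plus strand), Asns at chr6:7693210-7693459 (minus strand) and Hspa5 at chr2:34771840-34772089 (plus strand).

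Chac1: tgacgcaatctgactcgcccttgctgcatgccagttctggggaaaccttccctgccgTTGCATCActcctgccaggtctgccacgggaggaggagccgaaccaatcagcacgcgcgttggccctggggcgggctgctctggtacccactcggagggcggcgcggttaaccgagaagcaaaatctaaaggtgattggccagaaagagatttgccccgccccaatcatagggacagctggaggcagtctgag

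Asns: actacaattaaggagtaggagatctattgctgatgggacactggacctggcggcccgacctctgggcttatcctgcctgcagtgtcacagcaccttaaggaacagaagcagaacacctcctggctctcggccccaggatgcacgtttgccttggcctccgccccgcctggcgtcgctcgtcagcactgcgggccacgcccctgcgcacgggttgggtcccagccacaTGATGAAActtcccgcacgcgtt

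Hspa5: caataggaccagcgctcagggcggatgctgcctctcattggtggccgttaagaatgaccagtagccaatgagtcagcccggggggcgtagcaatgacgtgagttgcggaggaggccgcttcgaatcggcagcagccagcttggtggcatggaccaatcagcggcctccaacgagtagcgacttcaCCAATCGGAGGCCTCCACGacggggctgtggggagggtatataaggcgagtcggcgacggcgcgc

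The match in Chac1 is on the reverse strand, 193 to 186 bases before the start. That in Asns is 23 to 16 bases before it and that in Hspa5 65 to 47 bases before it. Trib3 holds TGATGNAA on the reverse strand from 14 bases after its start. In the list of 15 genes, all of which had a window, TGATGNAA occurred in 5 (Asns, Atf3, Chac1, Herpud1 and Trib3), against 3.97% of all windows. All 5 had positive differences, those of Herpud1 (0.16) and Atf3 (0.65) without an unadjusted p under 0.05. The stress element occurred in 3 (Creld2, Hsp90b1 and Hspa5), against 0.119% of all windows. All 3 had negative differences, none with an unadjusted p under 0.05. The list gathers known stress genes and these are known elements of such genes, so their excess over all windows is not a finding. These motifs were picked from the 9 after the matches were seen. The other 6 were TGATGNAAT, which contains TGATGNAA, TCACNCCAC, GACCACCCA, CTTTGAT, CTTTGATC, which contains CTTTGAT, and TGACGTCA, with 0.965%, 1.24%, 0.253%, 3.73%, 0.938% and 1.79% of all windows. TGATGNAA was also held by Idi1, which was lower in E7 del (-1.20). It was the 1 match among 11 genes of cholesterol synthesis with a window. A match is a description of the letters, not of binding.

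Cytosolic tRNA synthetases, which charge tRNAs with amino acids and several of which ATF4 induces, were added as a list after the values were seen. Of 17 measured genes 16 had a positive difference, 7 with an unadjusted p under 0.05, against 53.6% and 3.18% of all genes. The median was 0.40, and 0.17 with a covariate of host brain content, the mean of 36 neuron and myelin genes in each array. No synthetase gene was called. Yars was 8.85, 9.37 and 9.31 against 8.42, 8.72, 9.18, 8.23 and 8.27 (0.61 ± 0.19), and Gars was 10.50, 10.50 and 10.69 against 9.78 to 10.38. Array 59 was the highest E10 del.v2 array for Yars, Aars and Iars, as it was for Chac1, Trib3, Asns and Atf4. Of 13 synthetase genes with a promoter window 5 held TGATGNAA, against 3.97% of all windows. Both the list and the motif were picked after the data were seen, so this excess is not a finding either.

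Genes of cholesterol synthesis had negative differences throughout. The list holds enzymes from mevalonate to cholesterol together with sterol sensors and carriers. All 15 measured members had a negative difference, 9 with an unadjusted p under 0.05 and 5 without overlap, against 3.04% and 3.11% of all genes, and 0 were called. The median was -0.73, and from -0.87 to -0.47 under the other settings tried. Fdft1 and Stard4 had been named for E7 del in earlier work on these arrays, so the direction of this list is not independent evidence. Fdft1, squalene synthase, was 7.64, 7.30 and 7.82 against 7.84, 8.83, 9.12, 9.40 and 9.18 (-1.28 ± 0.37). Idi1, isopentenyl diphosphate isomerase, was 7.83, 7.86 and 8.28 against 8.68, 8.97, 9.37, 9.40 and 9.55, and its second probe set differed by -1.02. Fdps, Cyp51 and Stard4, a sterol carrier, also lay without overlap, with differences of -1.01, -0.84 and -1.22. Among the E10 del.v2 arrays array 56 was the lowest for Fdft1, Idi1, Fdps and Cyp51. The genes with the smallest differences were Dhcr7 (-0.21), Mvk (-0.27) and Hmgcs1 (-0.31).

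The mean of the list, in array order, was 7.10, 7.36 and 7.53 in E7 del. It was 7.51, 7.91, 8.34, 8.14 and 8.23 in E10 del.v2 and 7.23 in array 57. Array 53 was the lowest of the 8 arrays. Arrays 55 and 56 overlapped by 0.02.

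**Figure D4:**
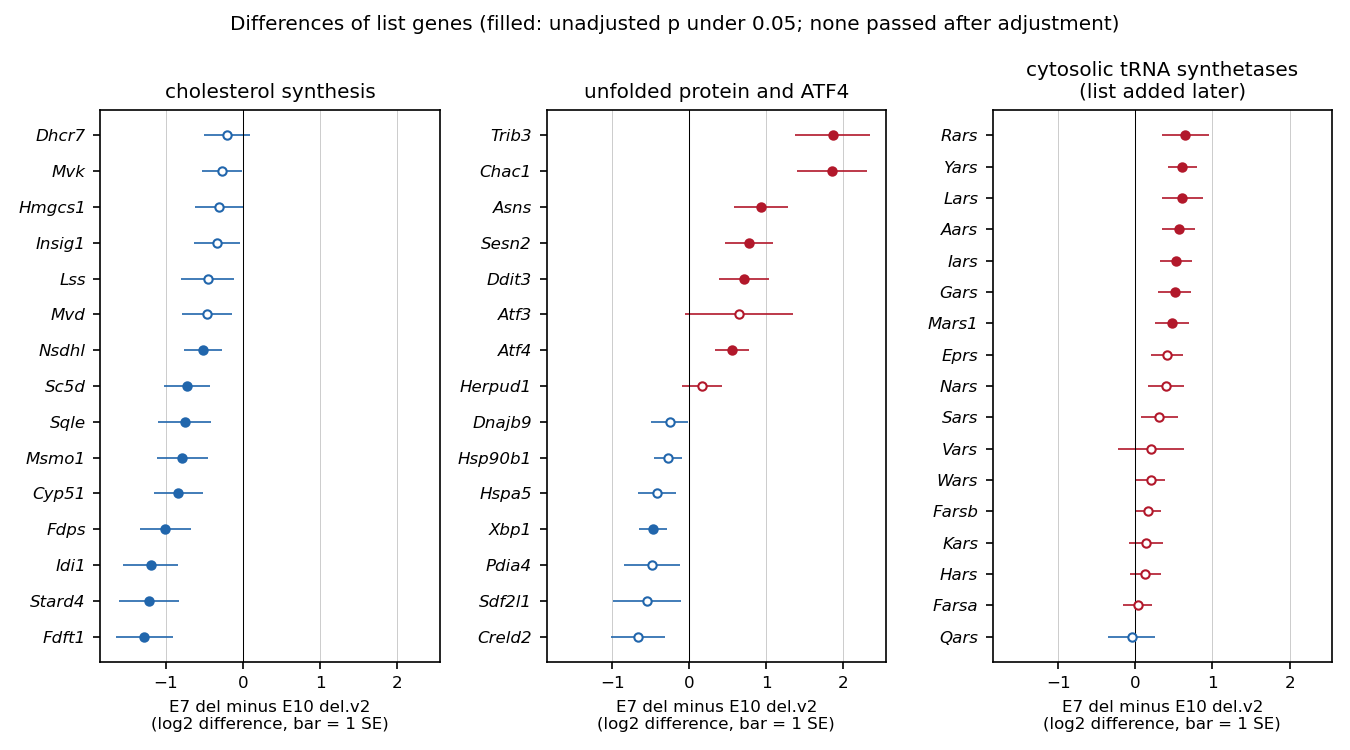
Differences E7 del minus E10 del.v2 (log2, bars of 1 SE of the limma fit) for genes of cholesterol synthesis (15), unfolded protein and ATF4 (15) and cytosolic tRNA synthetases (17, a list added after the values were seen). Filled points had an unadjusted p under 0.05. Every cholesterol gene lies left of 0 and 16 of 17 synthetases lie right of it, and none of these genes passed after adjustment.

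Of the receptor and its signalling, Pdgfra itself was 8.14, 9.06 and 8.02 in E7 del and 7.66, 7.18, 7.36, 6.79 and 7.61 in E10 del.v2, and 4.16 in array 57. The groups did not overlap, but the difference of 1.09 ± 0.79 did not pass (limma adjusted p = 0.838). Whether its probe set reads the retroviral construct is not given in the sources used here. Pdgfb, a ligand of PDGF receptors, was 5.51, 5.87 and 5.88 against 3.99 to 5.22 (0.82 ± 0.48). Pdgfrb was 4.67, 5.15 and 4.95 against 4.01 to 4.73, Pdgfc differed by -0.23 and Pdgfd by -0.14.

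Of 18 measured genes of ERK output and feedback 3 had an unadjusted p under 0.05, all on the higher side (3.18% of all genes), with a median of 0.23 that was -0.02 with a host brain covariate. Phlda1 was 11.56, 11.46 and 11.24 against 10.09 to 11.12, and Spred2, an inhibitor of the pathway, was 9.17, 9.28 and 8.85 against 8.35 to 8.77. Dusp4, an ERK phosphatase, was 7.86 in array 53 against 5.59 and 4.84 in the other E7 del arrays. All 7 measured Wnt targets had positive differences (53.6% of all genes) with a median of 0.56, which was 0.22 without array 54. Only Nkd1 had an unadjusted p under 0.05. Axin2, another feedback gene of the pathway, was 5.99, 6.69 and 6.63 against 5.66, 5.66, 5.71, 6.27 and 5.71. Of 15 measured neural stem and radial glia genes 9 had a positive and 6 a negative difference, near the 53.6% and 46.4% of all genes. The median of that list was 0.10. The 2 with an unadjusted p under 0.05 were both higher in E7 del, against 3.18% of all genes. Cd24a, a surface protein of neural progenitors, was 10.28, 10.73 and 10.48 against 7.80 to 9.49 (1.74 ± 0.64, limma adjusted p = 0.786). The progenitor factor Sox11 was 10.32, 10.54 and 10.50 against 9.31 to 9.87. Prom1, of the same list, differed by -0.85.

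In the mesenchymal glioma list all 22 measured genes had a positive difference, against 53.6% of all genes, but none had an unadjusted p under 0.05. The median was 0.55, and it was -0.05 with the host brain covariate. Fn1, fibronectin, was 9.55, 9.60 and 11 against 8.59 to 9.66. The NF-kB and inflammatory list had a median of 0.87 with 13 of 16 genes positive. Of these 2 had an unadjusted p under 0.05, against 53.6% and 3.18% of all genes. Array 53 was the highest E7 del array for Nfkbia (10.52 against 9.25 and 9.42) and the chemokine gene Cxcl1 (7.4 against 6.16 and 5.89), and the list median was 0.23 without arrays 53 and 63. Of 14 hypoxia genes 13 were positive, against 53.6% of all genes, with a median of 0.49, and -0.15 with the covariate. Angptl4 was 6.31, 6.04 and 6.41 against 3.64 to 5.65.

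The arrays differed in how much normal brain they read as. The mean of 18 neuron genes was 8.52, 5.70 and 5.39 in E7 del and 7.92, 8.42, 7.57, 9.58 and 8.32 in E10 del.v2, so array 53 lay among the E10 del.v2 arrays. In array 57 it was 11.13. Of the 18 genes 17 had a negative difference, against 46.4% of all genes, with a median of -2.14 that was -3.26 without array 53. Stmn2, a gene of growing axons, was 8.02, 2.66 and 3.02 against 6.64 to 10.30. All 18 measured myelin genes had negative differences (median -1.24), 9 with an unadjusted p under 0.05 and 3 without overlap, against 46.4%, 3.04% and 3.11% of all genes. Mbp, myelin basic protein, was 12.27, 7.46 and 10.84 against 12.17 to 13.13. Mobp was 8.27, 3.35 and 5.71 against 8.03 to 9.81. The mean of the list was 8.17, 6.07 and 7.43 against 8.21 to 9.41. In array 57 it was 8.14, below every E10 del.v2 array compared, although its neuron mean was the highest. V544ins arrays of the same title range had neuron means of 4.78 to 7.81 and myelin means of 8.48 to 10.06. The level of the neuron list thus did not give that of the myelin list in these arrays. Whether the myelin list reads brain content was not tested. Earlier results had named several of the myelin genes for E7 del, so the counts are not independent evidence. With the host brain covariate the list medians were -0.61 for cholesterol synthesis, 0.30 for unfolded protein and ATF4, 0.50 for Wnt targets and 0.67 for the NF-kB and inflammatory list.

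Tumour cell markers overlapped between the groups. The mean of 16 oligodendrocyte progenitor genes was 9.62, 10.83 and 10.89 in E7 del and 10.19 to 10.90 in E10 del.v2, with 6.90 in array 57. Olig2, a defining factor of that lineage, was 9.46, 11.24 and 11.29 against 10.54 to 11.43, and 7.19 in array 57. The mean of 23 cell cycle genes was 7.17, 8.58 and 8.05 against 7.47 to 8.6, with 4.51 in array 57. Array 53 was the lowest of the 8 arrays for both lists. The cell cycle list had a median difference of 0.12, and of -0.77 with the host brain covariate. The covariate is made of neuron and myelin genes, which themselves differed between the groups and were not high together in array 57. With it the median difference of the neuron list went from -2.14 to 0.85, so the covariate medians cannot separate brain content from genotype. The part of brain content in the results was not tested.

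Immune content spread widely within E10 del.v2. MHC class II genes had a list mean of 6.21, 7.43 and 7.39 in E7 del and of 8.96, 10.12, 6.85, 5.05 and 5.20 in E10 del.v2, so arrays 56 and 58 were high and arrays 63 and 64 low. H2-Eb1 ran from 4.52 in array 64 to 10.39 in array 58. Microglia and macrophage genes had list means of 7.55 to 8.46 and 7.24 to 8.6. The granulocyte gene S100a9 was 8.48 in array 58 and 2.90 to 5.84 in the other 7. Array 63 alone held hypothalamic and choroid plexus transcripts at high level, with Pmch, melanin-concentrating hormone, at 11.15 and Ttr, transthyretin, at 12.82, against 2.49 to 5.40 and 5.21 to 9.75 in the other 7.

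**Figure D5:**
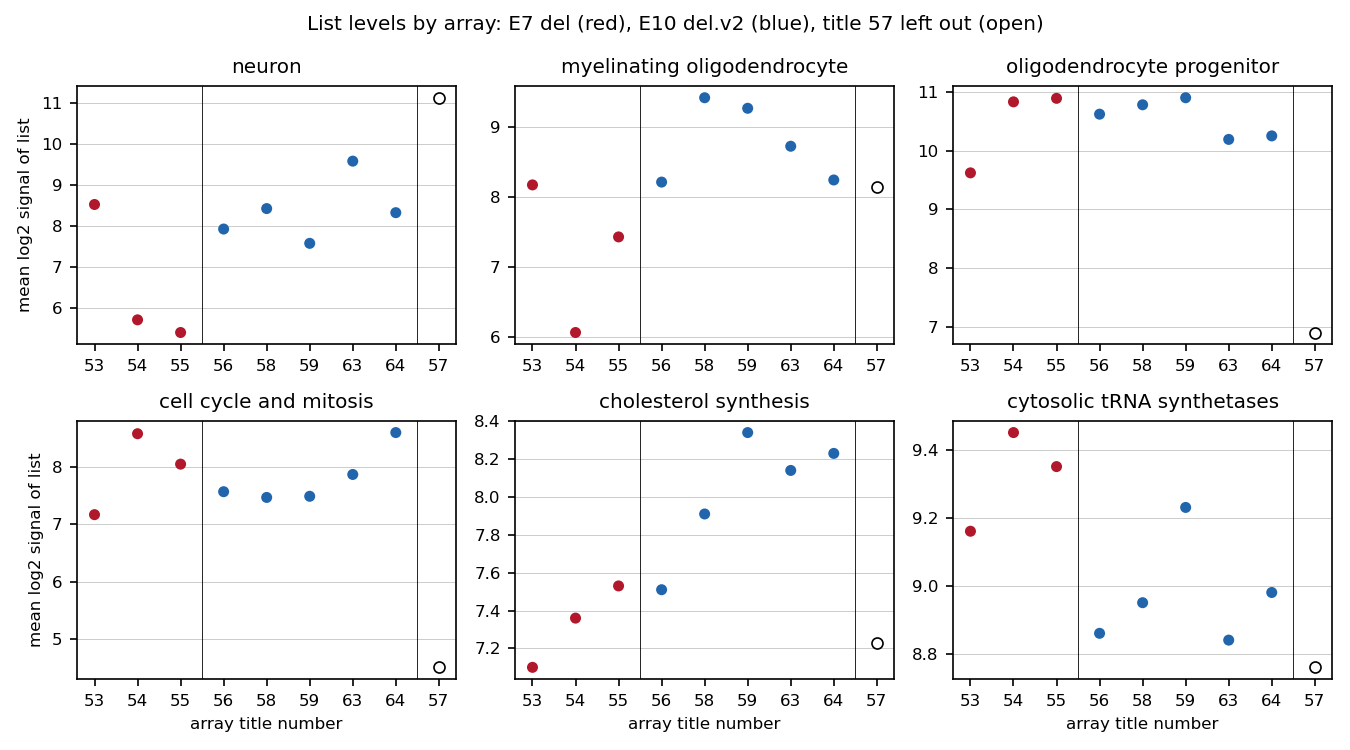
Mean log2 signal of 6 gene lists in each array, E7 del in red, E10 del.v2 in blue and array 57 as an open circle. Array 53 is at 8.52 for neuron genes and at 7.10 for cholesterol synthesis, and array 57 is highest for neuron genes (11.13) and lowest for progenitor (6.90) and cell cycle (4.51) genes.

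Xist and Y-linked genes were both present in all 8 arrays, at 9.17 to 11.18 for Xist, 5.28 to 6.38 for Uty and 8.02 to 9.03 for Eif2s3y. In array 57 Xist was 11.30 and the Y-linked genes were 3.08 to 3.23. RNA integrity, taken as the log2 signal of the 3' probe set of Actb less that of its 5' probe set, was 0.56 to 0.78 in the 8 arrays and 1.19 in array 57. Correlations between arrays over all genes were 0.876 to 0.965 within E7 del and 0.921 to 0.967 within E10 del.v2, and no pair was near identity.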

How the data were processed

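RNA of 45 arrays was analysed, of which 8 form the comparison. The authors deposited log2 signals for 45141 probe sets, made with RMA per the submitters' processing notes. No version or setting of RMA is given in the sources used here. Of the probe sets 28898 had 1 gene symbol in the platform annotation. Each of 17097 genes was represented by its probe set with the highest mean, and genes above 4.79 in at least 3 arrays were kept (11809).

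Means of 11 groups (genotype by title range, array 57 on its own) were estimated by lmFit and eBayes of limma 3.58.1, run in R 4.3.3, with 34 residual degrees of freedom. Adjustment followed Benjamini and Hochberg across the kept genes, and 0.05 was the threshold for a call. Replicates carry no number in the labels and were numbered in accession order. Errors of differences are standard errors of this fit.

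Named genes were, per direction, the 12 called genes with the largest difference and no overlap between groups, filled in order of p where fewer were called. To these were added Foxf1, Fendrr, Pdgfra, sex chromosome genes, genes named in earlier work and up to 4 genes per list with the smallest p. Other genes were named after their values were seen. The arrays, gene lists and rule were chosen with earlier results of these data known. The tRNA synthetase list, the motifs shown and the fit without arrays 53 and 63 were chosen after seeing the data.

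Alternative settings were other filters, the mean of probe sets, centring, quantile normalisation, a trended robust prior, array weights, fewer or more arrays, a covariate of host brain content (the mean of 36 neuron and myelin genes), a minimum difference and leaving out each array. The procedure was tested on simulated data. Promoter windows are RefSeq's (GRCm38.p6).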

Additional observations from a re-analysis of the deposited data

Results flagged for a closer look

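Of 74 genes and lists examined in the 5 E10 del.v2 arrays, 5 had 1 array far from the others by Dixon's test, and chance alone gives about 1 in 20. Array 63 was high for Resp18 at 10.34, where the next array was 7.82, and for Axin2 at 6.27, where the next was 5.71. It was low for Ddx43, a helicase gene, at 3.91 against a next value of 5.70. Array 56 was low for the ligand gene Pdgfb at 3.99, with the next at 5.06. Array 59 was high for the synthetase gene Iars at 10.28, with the next at 9.79. E7 del, with 3 arrays, was not examined in this way.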

How the results depend on the processing

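Of 1337 values of 61 genes under 22 other settings, 1277 kept their direction and their side of the threshold, 49 were called only there, 11 lost the call and 0 reversed. The 2 calls are the genes the comparison was chosen for and support nothing. With a filter of 9 arrays the count was 1 (Foxf1), because Fendrr did not pass that filter and was not tested. The count was 1 with the mean of all probe sets (Fendrr) and 1 without arrays 53 and 63 (Fendrr). It was 0 with only the 8 arrays compared, 0 within titles 41 to 64 and 0 with a minimum log2 difference of 1. The unadjusted p was under 0.05 for 1093, 593 and 23 genes there. With all 9 E10 del.v2 arrays 3 genes were called, 1 of them lower (Tm7sf2). Leaving out 1 array at a time gave 0 to 4 calls, 0 to 2 higher and 0 to 2 lower: 0 without array 54, 1 without array 63 and 4 without array 53. Array weights called 1637 genes, 786 higher and 851 lower. Array 55 then held 82.4% of the E7 del weight, with a weight of 5.02 against 0.29 and 0.78 for arrays 53 and 54, so these calls rest mainly on 1 array. Of 286 list medians under other settings 32 moved beyond the spread between E10 del.v2 arrays. No paired analysis was possible because the labels give no replicate numbers. Fendrr was below 4.79, the median of the table, in all 5 E10 del.v2 arrays, so its fold rests on low signals there.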

Other observations

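Some gene groups outside the lists described above held single members with separated or uneven values. Grm3, a metabotropic glutamate receptor gene of glia and neurons, was 6.2, 4.11 and 4.52 in E7 del and 7.61, 8.45, 7.15, 8.96 and 7.71 in E10 del.v2, with 10.52 in array 57. Its difference of -3.03 ± 1.16 was -0.13 at its smallest under the other settings, with the host brain covariate. Of 19 measured TGF-beta and BMP genes 11 had a positive and 8 a negative difference, against 53.6% and 46.4% of all genes. The median of that list was 0.02. An unadjusted p under 0.05 was reached by 2, both lower in E7 del, against 3.04% of all genes. The receptor gene Bmpr1b was 6.49, 4.22 and 5.61 against 6.25 to 7.22, and the inhibitor gene Id4 was 9.58, 6.99 and 8.19 against 9.13 to 10.42. Jchain, the joining chain of secreted antibodies, was 2.73 to 2.83 in E7 del and 5.52 and 6.18 in arrays 56 and 58, the same arrays that were high for MHC class II genes, against 2.75 to 3.09 in the other three. Cdh15, a cadherin gene of muscle, was 7.62 in array 53 and 4.03 to 4.98 in the other 7.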
